A study of Mus musculus with 48 samples.

Results

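Reelin and the proteins that receive its signal were followed through 5 genes of 55357 in the count table: Reln (reelin itself), Lrp8 and Vldlr (its receptors), Dab1 (the adaptor inside the receiving cell) and Lrpap1 (a chaperone of the receptors). The set was chosen by function and with earlier results of these data in view, above all the low Reln level in the injected dentate gyrus at day 3 and its return by day 7. Those Reln values are therefore given as a description, without a test, and no value of the set counts as independent support for it. All 5 genes passed the filter on low counts, as did 21390 genes in all.

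RNA came from the dorsal dentate gyrus of 24 wild-type C57BL/6J mice, each of which gave 1 library from the injected side, the epileptogenic zone (EZ), and 1 from the opposite side, the peri-ictal zone (PIZ). The mice received saline or kainate, a glutamate receptor agonist that starts status epilepticus (SE), into the hippocampus of one side, and tissue was taken at day 3, day 7 or day 14. The series record gives their age as 6 to 8 weeks, and the study's methods give an older range. This gave 12 groups of 4 libraries, with 2 male and 2 female mice in each. The tissue was a dissected mixture of cells, seizures were scored by behaviour without EEG, and in such bulk tissue fewer cells of a type and less RNA per cell cannot be told apart.

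Reelin is a large secreted glycoprotein that in the adult hippocampus is made by Cajal-Retzius cells along the hippocampal fissure and by interneurons. It binds VLDLR and the product of Lrp8 (ApoER2) on neurons, after which Src family kinases phosphorylate DAB1, and the signal passes on to Crk and Rap1, to PI3K, Akt and GSK3, and to the cytoskeleton. Loss of reelin is known to go with dispersion of the granule cell layer in temporal lobe epilepsy and in kainate-injected mice.

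The shallowest library held 17762656 counts and the deepest 25712975 (median 22108562). Values of single libraries are CPM, that is, reads of a gene relative to its library size, which was scaled by the trimmed mean of M-values (TMM), and the lowest count of a member was 255 reads for Reln. The granule cell marker Prox1 averaged 247 CPM over the 48 libraries and the choroid plexus marker Ttr averaged 0.836 CPM. One library stood apart from its group in glial markers: in the EZ at day 14 after kainate, mouse 27 had a summed level of 8267 CPM over 5 astrocyte markers, against 1944 to 2698 CPM in the other mice of that group, and 2371 CPM over 5 microglia markers, against 437 to 611 CPM. The astrocyte sum, here and below, was on average weighted most by Gfap, at 1983 CPM over the 48 libraries, ahead of Slc1a3 at 778 CPM.

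Reln is a gene of chromosome 5 (GRCm39, 22089452 to 22549700, minus strand; ENSMUSG00000042453.15). Lrp8 lies on chromosome 4 (107659066 to 107734038, plus strand; ENSMUSG00000028613.16), as does Dab1 (103476556 to 104602041, plus strand; ENSMUSG00000028519.17). Vldlr lies on chromosome 19 (27193862 to 27231631, plus strand; ENSMUSG00000024924.15) and Lrpap1 on chromosome 5 (35248837 to 35263892, minus strand; ENSMUSG00000029103.17). Each count is the sum over all exons of the gene, so isoforms are not told apart.

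Before any kainate effect, the 5 genes were already transcribed at unequal levels. Per kilobase of the canonical transcript, the mean level over the saline groups was 5.69 CPM for Reln, 12.3 for Lrp8, 12.6 for Vldlr, 28.3 for Dab1 and 53.4 for Lrpap1. Per kilobase of all annotated exons the order was the same, from 2.80 CPM for Reln to 27.8 CPM for Lrpap1. Over the 24 saline libraries Reln ranged from 49.3 to 89.1 CPM with a median of 66.0 CPM, and Lrpap1 ranged from 141.8 to 174.8 CPM with a median of 159.9 CPM. The side of the saline injection made no detectable difference to any member. The log2 difference of saline EZ from saline PIZ, averaged over the days, was -0.07 (SE 0.11, adjusted p = 0.884) for Reln. It was between -0.09 and 0.06 for the other genes. Of the members 0 of 5 were called by edgeR or DESeq2, where 0.0234% of all genes were called. At an unadjusted p under 0.05 there were 0 of 5 members, beside 1908 of all 21390 genes. The astrocyte marker sum did differ between these sides at day 3, at 2618 to 5005 CPM in saline EZ and 1342 to 1609 CPM in saline PIZ.

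**Figure D1:**
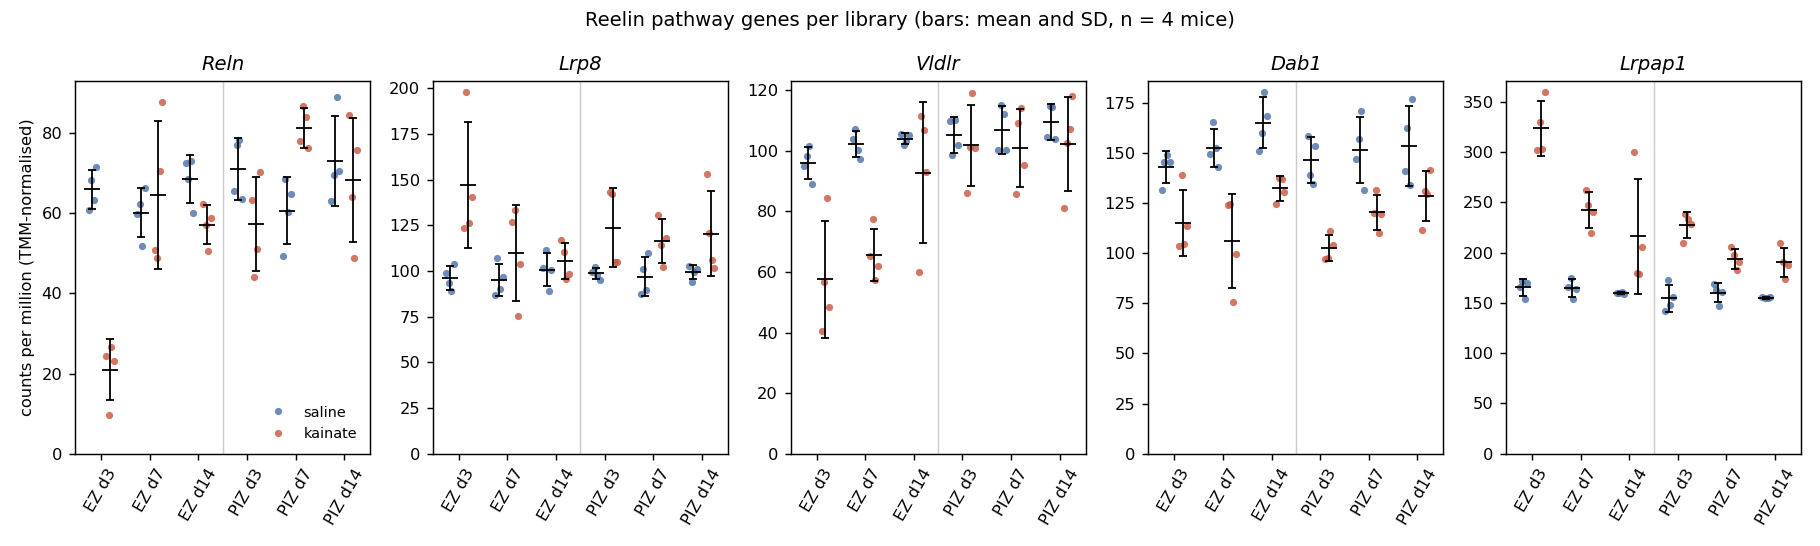
TMM-normalised CPM of Reln, Lrp8, Vldlr, Dab1 and Lrpap1 in each of the 48 libraries, by region and day, with saline in blue, kainate in red, and bars for the mean and SD of 4 mice. Reln in the EZ at day 3 after kainate sits between 9.76 and 26.6 CPM, below every other library, while the Lrpap1 mean is higher after kainate in all 6 pairs of groups.

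The ligand was lowest in the EZ at day 3 after kainate. Reln was at 24.4, 9.76, 26.6 and 23.2 CPM in the 4 kainate mice and at 60.8, 68.3, 63.3 and 71.7 CPM in the 4 saline mice, so that the groups did not overlap. Their means were 20.99 ± 7.6 and 66.0 ± 4.9 CPM (SD, n = 4), a log2 fold change of -1.65 (SE 0.20), which is 0.318 of the saline level. At day 7 the kainate mice had 50.7, 49.0, 70.6 and 87.9 CPM and the saline mice 59.9, 62.2, 51.9 and 66.4 CPM. These ranges overlapped, with mouse 35 the highest, and the log2 fold change was 0.10 (SE 0.19), or -0.08 without mouse 35. The effect at day 7 minus that at day 3 was 1.76 (SE 0.27). All of these differences entered the choice of Reln and carry no test, and they are set beside the share of all genes called lower at day 3 (8.61%) and higher (20.6%) or lower (11.9%) at day 7 as background only.

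At day 14 Reln in the EZ was at 62.4, 57.0, 50.6 and 58.7 CPM after kainate and at 72.5, 68.5, 73.2 and 59.99 CPM after saline. Only the lowest saline library fell inside the kainate range, and the log2 fold change of -0.26 (SE 0.19) did not pass the test (adjusted p = 0.489, exact permutation p = 0.0571, two-sided). Its 95% interval ran from 0.64 to 1.09 of the saline level. Relative to its own saline group, Reln was thus at 0.318, 1.07 and 0.834 at the successive days.

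On the opposite side no difference in Reln passed the test. In the PIZ at day 3 the kainate mice had 63.2, 44.2, 51.2 and 70.3 CPM and the saline mice 65.6, 77.1, 78.2 and 63.5 CPM, so that the log2 fold change was -0.31 (SE 0.19, adjusted p = 0.233). At day 7 all 4 kainate libraries, at 78.0, 86.8, 84.0 and 76.3 CPM, lay above the saline libraries at 49.3, 68.5, 60.3 and 64.7 CPM. The exact permutation p was 0.0286, the smallest that 4 against 4 allows, and the log2 fold change was 0.42 (SE 0.19), with an adjusted p of 0.288 over all genes. At day 14 the values were 84.6, 64.1, 48.9 and 75.8 CPM after kainate and 63.0, 69.6, 89.1 and 70.6 CPM after saline, and the log2 fold change was -0.10 (SE 0.19, adjusted p = 0.999). The effect at day 7 minus that at day 3 in the PIZ was 0.73 (SE 0.27, unadjusted p = 0.0089, adjusted p = 0.301), and the step from day 7 to day 14 was -0.52 (SE 0.27, adjusted p = 1).

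Over the 12 groups the order of mean Reln levels ran from 20.99 CPM in the EZ at day 3 after kainate to 81.3 ± 4.9 CPM in the PIZ at day 7 after kainate. The lowest group was the only one whose libraries did not overlap those of the next in order, at 57.2 ± 4.9 CPM. The other 11 groups formed an unbroken series, each overlapping its neighbour.

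The 2 sides of the same mouse can also be set against each other. In the kainate mice at day 3 the EZ held 0.221 to 0.519 of the Reln level of the PIZ, with a median of 0.358. The ratio was 0.564 to 1.15 at day 7 and 0.737 to 1.04 at day 14. In saline mice it lay between 0.809 and 1.22 over the 3 days. The EZ effect minus the PIZ effect was -1.34 at day 3 and -0.32 at day 7 on the log2 scale, which are given without a test, and -0.16 (SE 0.27, adjusted p = 0.907) at day 14. The day 7 value was -0.52 without mouse 35 and -0.17 without mouse 26.

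The receptors moved apart. In the EZ at day 3 the kainate mice had Lrp8 at 123.5, 197.8, 126.4 and 140.2 CPM and the saline mice at 99.1, 93.5, 88.9 and 103.6 CPM, with no overlap. Lrp8 rose 1.53-fold (0.61 on the log2 scale, SE 0.14, adjusted p = 0.000479) and was a DEG, which here means that the adjusted p was below 0.01 and the change larger than 1.5-fold. Mouse 30, which had the lowest Reln level, had the highest Lrp8 level, and without it the change was 0.43 (adjusted p = 0.0089), which is under 1.5-fold. Without mouse 18 it was 0.57, also under 1.5-fold. A fit of only the groups compared gave 0.57 with an adjusted p of 0.012, which is no call.

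Lrp8 was not a DEG in any other comparison of kainate with saline. In the EZ the log2 fold change was 0.21 (SE 0.14, adjusted p = 0.203) at day 7 and 0.06 (SE 0.14, adjusted p = 0.846) at day 14. In the PIZ it was 0.33 (SE 0.14, adjusted p = 0.0847) at day 3, when the kainate libraries at 143.2, 141.8, 105.1 and 104.9 CPM all lay above the saline libraries at 94.9 to 102.4 CPM. It was 0.26 at day 7 and 0.28 at day 14, neither past the test. Without mouse 27 the day 14 value in the PIZ was 0.14. The difference between the EZ and PIZ effects at day 3 was 0.28 (SE 0.20, adjusted p = 0.452), so a larger Lrp8 change on the injected side was not shown.

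Vldlr went the other way in the EZ. At day 3 it was at 40.4, 56.5, 84.5 and 48.5 CPM after kainate and at 94.8, 98.2, 101.6 and 89.1 CPM after saline. It fell to 0.599 of the saline level (log2 fold change -0.74, SE 0.15, adjusted p = 0.000113), and the 4 kainate libraries were all below the saline ones, with mouse 44 the nearest. At day 7 it was at 65.4, 77.4, 57.5 and 62.0 CPM after kainate and at 104.0, 107.1, 100.3 and 97.4 CPM after saline, and fell to 0.641 of the saline level (log2 fold change -0.64, SE 0.15, adjusted p = 0.00039). Without mouse 21 this change was -0.58, just under 1.5-fold. Vldlr was a DEG at both days, although at day 3 a fit of only the groups compared gave -0.77 with an adjusted p of 0.012, which is no call.

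By day 14 the Vldlr values in the EZ were 59.9, 111.3, 106.7 and 93.0 CPM after kainate against 101.8 to 105.7 CPM after saline. The low value belonged to mouse 27, the library with high glial markers, and the log2 fold change was -0.17 (SE 0.15, adjusted p = 0.589) with it and -0.01 without it. In the PIZ Vldlr showed no detectable change, with log2 fold changes of -0.05, -0.08 and -0.10 at days 3, 7 and 14, and adjusted p-values of 0.857, 0.853 and 0.999. The difference between the sides did not pass the threshold either, at -0.69 (SE 0.21, adjusted p = 0.0889) at day 3 and -0.56 (SE 0.21, adjusted p = 0.0434) at day 7. Without mouse 44 the day 3 difference was -0.85 and did pass it.

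Within a library, the ratio of Lrp8 to Vldlr CPM gathers both changes, and it shows a change in balance but not which gene moved. Its group means were 0.911 to 1.01 in the 6 saline groups. In the EZ after kainate it was 2.73 ± 0.86 (lowest library 1.496, highest 3.498) at day 3 and 1.66 ± 0.26 (range 1.31 to 1.94) at day 7. At day 14 it was 1.22 ± 0.49, with the highest library at 1.95 in mouse 27. In the PIZ after kainate the means were 1.25, 1.18 and 1.23, with ranges that overlapped saline at all 3 days. At day 14 mouse 27 stood apart in the PIZ too, at 1.89, and the other mice were at 0.860, 0.992 and 1.18.

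**Figure D2:**
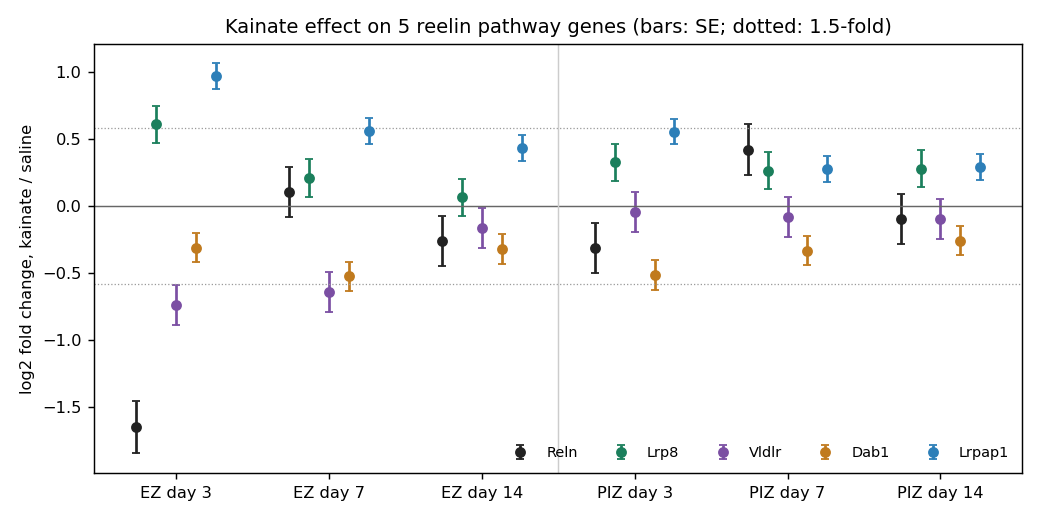
Log2 fold change of kainate over saline for the 5 genes in each region and day, with bars for 1 SE and dotted lines at 1.5-fold. Reln in the EZ at day 3 is the lowest point at -1.65, Lrpap1 is above 0 in all 6 comparisons and Dab1 is below 0 in all 6.

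Dab1, the adaptor that becomes phosphorylated when reelin binds its receptors, fell in the EZ at day 7 and in the PIZ at day 3, by less than 1.5-fold with all mice in the fit. In the EZ at day 3 the kainate libraries had 103.4, 139.1, 104.7 and 113.8 CPM and the saline libraries 131.5 to 149.2 CPM, a log2 change of -0.31 (SE 0.11, adjusted p = 0.0188). Mouse 30 overlapped the saline range, and without it the change was -0.41 (adjusted p = 0.00382). At day 7 Dab1 fell by 0.53 (SE 0.11, adjusted p = 0.000118), from 143.1 to 165.3 CPM in saline to 124.2, 124.8, 75.6 and 99.6 CPM after kainate. Without mouse 21, the lowest of these, the change was -0.39 (adjusted p = 0.0019), while without mouse 23 or mouse 26 it was -0.61 (adjusted p = 3.64e-05 and 3.47e-05), which made Dab1 a DEG. In a fit of only the groups compared the change was -0.53 with an adjusted p of 0.0282, which did not pass. At day 14 the groups did not overlap, at 124.6 to 137.4 CPM and 150.8 to 180.6 CPM, but the log2 fold change of -0.32 (SE 0.11) had an adjusted p of 0.088.

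In the PIZ the Dab1 change was of similar size. It fell by 0.51 at day 3 (SE 0.11, adjusted p = 0.000816), with 97.2, 97.8, 111.2 and 104.1 CPM after kainate and 134.5 to 158.3 CPM after saline. At days 7 and 14 the log2 fold changes were -0.33 (adjusted p = 0.123) and -0.26 (adjusted p = 0.761). The EZ effect minus the PIZ effect was 0.20 (SE 0.16, adjusted p = 0.5) at day 3 and -0.19 (SE 0.16, adjusted p = 0.364) at day 7, and the 95% intervals of these ratios, 0.925 to 1.43 and 0.703 to 1.09, allow a modest difference either way. The 6 kainate group means, 102.6 to 132.3 CPM, were all below the 6 saline group means, 142.9 to 165.0 CPM.

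Lrpap1, the endoplasmic reticulum chaperone that keeps receptors of the LDL receptor family from binding ligands too early, rose. In the EZ at day 3 it was at 301.5, 329.6, 302.9 and 359.5 CPM after kainate and at 153.4 to 172.0 CPM after saline, a 1.96-fold change (log2 fold change 0.97, SE 0.10, adjusted p = 4.6e-09). Lrpap1 was a DEG in this comparison, together with Lrp8 and Vldlr, which makes 3 of the 4 members that were tested there, 2 higher and 1 lower, beside 16.1% and 8.61% of all genes. In a fit of only the groups compared Lrpap1 alone was called (0.93, adjusted p = 0.000152). At day 7 it was at 262.2, 247.6, 219.7 and 240.5 CPM against 153.7 to 174.8 CPM, a 1.47-fold change (log2 0.56, SE 0.10, adjusted p = 7.62e-06). Vldlr, which was lower, was then the only DEG among the 4 members tested at day 7, beside 11.9% of all genes called lower. This count turned on single mice: Lrpap1 was also a DEG without mouse 33 (0.59) or mouse 21 (0.61), Dab1 without mouse 23 or mouse 26, and Vldlr no longer without mouse 21.

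At day 14 Lrpap1 in the EZ was at 299.8, 179.7, 178.7 and 205.6 CPM against 158.8 to 161.0 CPM. The log2 fold change was 0.43 (SE 0.10, adjusted p = 0.00437), but the highest library was mouse 27 and without it the change was 0.23 (adjusted p = 0.401). A fit of only the groups compared gave 0.45 with an adjusted p of 0.56. No member was a DEG there by edgeR or DESeq2, and 2.32% of all genes were called higher and 0.0374% lower. At an unadjusted p under 0.05 there were 2 of 5 members, beside 3848 of all 21390 genes.

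In the PIZ Lrpap1 rose at day 3 by 0.56 on the log2 scale (SE 0.10, adjusted p = 6.78e-05), from 141.8 to 172.5 CPM in saline to 209.3, 237.9, 233.5 and 228.4 CPM. The kainate and saline libraries also did not overlap at day 7 (0.28, adjusted p = 0.142) and day 14 (0.29, adjusted p = 0.404), where the change did not pass the test. The effect in the EZ minus that in the PIZ was 0.41 (SE 0.14, adjusted p = 0.111) at day 3 and 0.28 (SE 0.14, adjusted p = 0.117) at day 7. Ordered by group mean, the 6 saline groups were the lowest for Lrpap1, from 154.5 to 165.2 CPM, and the 6 kainate groups followed from 190.3 to 323.4 CPM.

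In the PIZ no member was a DEG at any day with all mice in the fit. Lrpap1 at day 3 became one without mouse 38 (0.59, adjusted p = 9.5e-05) or mouse 37 (0.61, adjusted p = 0.000134). The counts by edgeR and by DESeq2 were 0 of 5 at each day. At an unadjusted p under 0.05 there were 3, 3 and 2 members at days 3, 7 and 14. Of all 21390 genes, 7641, 3104 and 1277 were under that cut in the PIZ at these days. Of all genes, 7.12% were called higher and 1.57% lower there at day 3. By day 7 these shares were 0.15% and 0.0514%, and by day 14 they were 0.00935% and 0.00468%.

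With all mice in the fit and no term for the mouse, no tested member passed both thresholds between the sides or between days. For the EZ effect minus the PIZ effect, 0 of 4 members were called at day 3, 0 of 4 at day 7 and 0 of 5 at day 14 by either tool, with 2, 2 and 0 at an unadjusted p under 0.05. The share of all genes called was 0.0655%, 9.89% and 0%, and for the last DESeq2 called 2 genes. At an unadjusted p under 0.05 edgeR found 3828, 8594 and 1562 of all 21390 genes. Within the mouse, the EZ to PIZ ratios of Vldlr and Lrpap1 did not overlap between treatments at days 3 and 7. The same held, on log2 CPM, for 7.5% of all genes lower and 7.96% higher after kainate at day 3, and for 13.1% and 16% at day 7. At day 14 the ratios of all 5 members overlapped, beside 3.06% of all genes lower and 2.82% higher without overlap. For Vldlr they were 0.470 to 0.710 after kainate and 0.863 to 0.998 after saline at day 3, and 0.504 to 0.763 and 0.896 to 1.04 at day 7. For Lrpap1 they were 1.30 to 1.57 and 0.997 to 1.17 at day 3, and 1.21 to 1.28 and 0.983 to 1.07 at day 7. Each of these 4 gave an exact permutation p of 0.0286 (two-sided), the smallest possible with 4 against 4, and 0.0929 after Benjamini-Hochberg adjustment over 13 tests added after the values were seen. With the mouse as a replicate block, the edgeR difference for Vldlr was -0.74 (adjusted p = 0.0117) at day 3 and -0.56 (adjusted p = 0.00632) at day 7, the latter past the adjusted p but under 1.5-fold. For Lrpap1 it was 0.41 (adjusted p = 0.0365) and 0.28 (adjusted p = 0.0364).

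From day 3 to day 7 the effect of Lrpap1 in the EZ changed by -0.41 (SE 0.14, adjusted p = 0.167) and that of Lrp8 by -0.40 (SE 0.20, adjusted p = 0.413), where 0.145% of genes were called. From day 7 to day 14 the effect of Vldlr in the EZ changed by 0.47 (SE 0.21, adjusted p = 0.108), where 0.271% were called, and without mouse 27 this step was 0.64 and passed the threshold. In the PIZ 0 of 5 members were called in either step by either tool, with 2 and 0 at an unadjusted p under 0.05. Of all genes 0.0234% were called from day 3 to day 7 and 0% from day 7 to day 14, where DESeq2 called 1. At an unadjusted p under 0.05 edgeR found 2270 and 658 of all 21390 genes in these steps.

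Among the cells that make reelin, interneurons had lower markers in the EZ at day 3. Of 9 interneuron markers 7 fell and none rose, with a median log2 fold change of -2.11, beside a median of 0.0323 over all genes tested. Of all genes 8.61% were called lower and 16.1% higher. Sst, the interneuron neuropeptide somatostatin, went from 44.9 ± 11.05 CPM in saline to 5.16 ± 5.2 CPM, and Pvalb, a calcium-binding protein of fast-spiking interneurons, from 14.5 to 2.05 CPM. Gad1 and Gad2, which make GABA, had log2 fold changes of -0.43 (adjusted p = 0.0459) and -0.24 (adjusted p = 0.429). The summed level of the 9 markers was 239 to 417 CPM after kainate and 436 to 618 CPM after saline. Sst, Pvalb and the other interneuron genes named here apart from Gad1, Gad2 and Ndnf were picked after their values were seen.

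At day 7, when Reln in kainate mice overlapped saline, most interneuron markers were still low. Of the 9 markers 5 had fallen (Slc32a1, Sst, Pvalb, Lamp5 and Lhx6), with log2 fold changes from -2.03 to -2.74, beside 11.9% of all genes called lower. Gad1 and Gad2, the most abundant of the 9 at means of 246 and 119 CPM over the 48 libraries, were not called at day 7. The summed level of the 9 was 204 to 428 CPM against 477 to 584 CPM. The list median was -2.03, and that over all genes was 0.0109. The exceptions among the 7 that had fallen at day 3 were Ndnf, a secreted protein of neurogliaform and Cajal-Retzius cells, which was at -0.76 (adjusted p = 0.000677) at day 3 and 0.03 (adjusted p = 0.901) at day 7, and Vip, at -1.80 and then -0.52 (adjusted p = 0.244). At day 14 edgeR called none of the 9 in the EZ, with 0 of 9 at an unadjusted p under 0.05. Mouse 27 stood apart there. Its Sst was at 2.22 CPM against 35.05 to 81.0 CPM in the other 3 kainate mice, its Slc32a1 at 2.08 against 23.6 to 27.1 CPM, and Pvalb, Lamp5 and Lhx6 were also lowest in it, at 2.54, 1.27 and 1.27 CPM. The same library had the highest Gad1 and Gad2 of the group, at 336.1 and 205.3 CPM, and the highest Reln, at 62.4 CPM. In the PIZ edgeR called none of the 9 at any day, with 1 of 9 at an unadjusted p under 0.05 at day 3 and 0 of 9 at days 7 and 14.

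Of 5 Cajal-Retzius markers 2 fell in the EZ at day 3 and none rose, with a list median of -0.18. Of all genes 8.61% were called lower there and 16.1% higher. Trp73, a transcription factor gene of these cells, fell by 0.81 (SE 0.22, adjusted p = 0.00265) and Nhlh2 by 0.84 (SE 0.23, adjusted p = 0.00287). Trp73 went from 5.06 ± 0.80 to 2.87 ± 0.95 CPM, and at day 7 it was at 4.66 ± 1.1 CPM against 6.56 ± 1.4 CPM, with a log2 fold change of -0.49 (adjusted p = 0.0501). At day 7 edgeR called none of the 5, with 1 at an unadjusted p under 0.05. Lhx5, a defining gene of the type, was near 0 throughout, and at day 3 its mean was 0.150 CPM in saline and 0.414 CPM after kainate (log2 fold change 1.44, SE 0.60, adjusted p = 0.0472). The summed level of the list was set mostly by Cacna2d2, which other neurons also use and whose log2 fold change was 0.17 (adjusted p = 0.711). The sum was 13.8 to 33.4 CPM after kainate and 18.1 to 22.95 CPM after saline at day 3, so that the groups overlapped. The overlap came from mouse 44, at 33.4 CPM, while the other 3 kainate mice were at 13.8 to 16.9 CPM, below every saline library. Cacna2d2 was at 28.1 CPM in mouse 44 and averaged 10.2 CPM in the other 3, under the saline mean of 13.04 CPM, so that the direction of its change turned without that mouse. On the opposite side the sums were higher after kainate without overlap, at 31.2 to 69.0 CPM against 23.01 to 25.8 CPM at day 3, 26.8 to 47.8 against 22.2 to 24.7 CPM at day 7 and 25.4 to 66.1 against 22.2 to 24.3 CPM at day 14. There 1 of the 5 markers was called, Cacna2d2 at day 3 (log2 fold change 1.41, SE 0.34, adjusted p = 0.00229), while Trp73 was at 0.04 (adjusted p = 0.929). Of all genes 7.12% were called higher in the PIZ at day 3. Nhlh2 was named after its values were seen. The part that the cell types had in the Reln values was not tested.

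**Figure D3:**
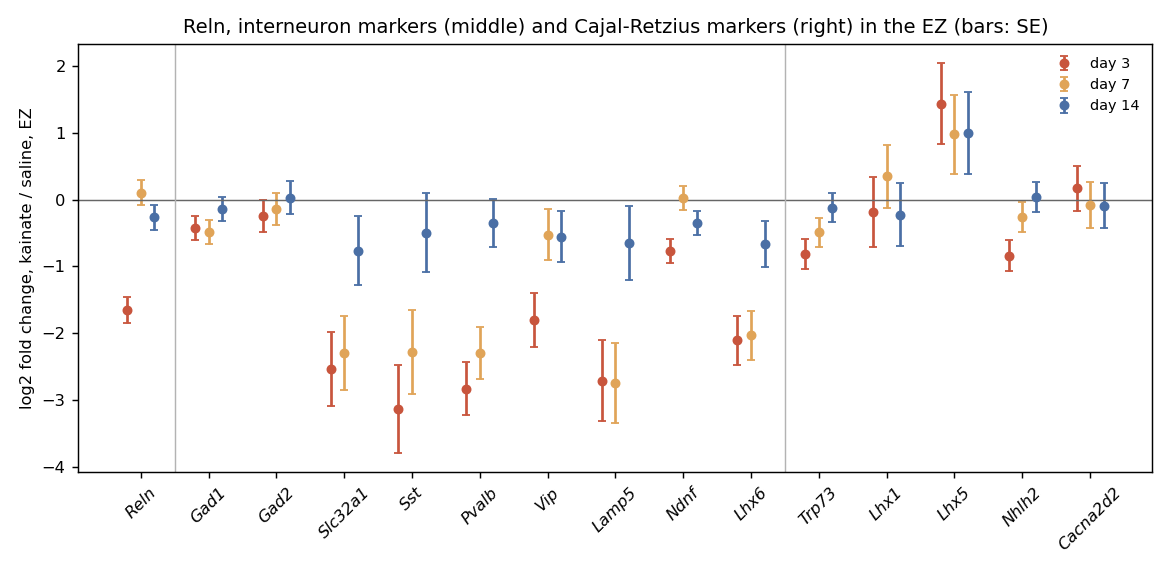
Log2 fold change of kainate over saline in the EZ for Reln, 9 interneuron markers and 5 Cajal-Retzius markers at days 3, 7 and 14, with bars for 1 SE. At day 7 Reln is at 0.10 and Ndnf at 0.03, while Sst, Pvalb, Slc32a1, Lamp5 and Lhx6 are at -2.03 or lower.

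Astrocyte and microglia markers were higher on both sides at day 3. Astrocyte markers rose in 3 of 5 cases in the EZ at day 3 and in 4 of 5 at day 7, and in 3 of 5 in the PIZ at day 3, and microglia markers in 4, 5 and 5 of 5. Of all genes, 16.1%, 20.6% and 7.12% were called higher in these 3 comparisons, and 8.61%, 11.9% and 1.57% lower. Of 5 oligodendrocyte markers edgeR called 0 on either side at day 3, with 0 at an unadjusted p under 0.05 and medians of -0.21 in the EZ and -0.19 in the PIZ. The astrocyte sum in the EZ was 6468 to 7549 CPM after kainate at day 3 and 7038 to 9218 CPM at day 7, and in the PIZ at day 3 it was 5878 to 6372 CPM against 1342 to 1609 CPM in saline. Granule cell markers fell in 3 of 5 cases in the EZ at day 3, in 2 of 5 at day 7 and in 2 of 5 in the PIZ at day 3. Pyramidal neuron markers fell in 4 of 6 cases in the EZ at day 3 (median -1.53) and in 5 of 6 at day 7 (median -1.65), with sums of 118 to 226 CPM against 372 to 536 CPM in saline at day 3 and of 117 to 277 against 373 to 645 CPM at day 7. Oligodendrocyte precursor markers rose in 2 of 3 and 3 of 3 cases at these days. Among the EZ kainate libraries at day 7, mouse 21 had the lowest granule cell sum, 124 CPM, the highest microglia sum, 4690 CPM, and the lowest Lrp8, Vldlr, Dab1 and Lrpap1 levels. Whether the mix of cells had a part in the changes of Lrp8, Vldlr, Dab1 and Lrpap1 was not tested.

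The genes whose levels went most closely with Reln over the 48 libraries were Ndnf (Pearson r = 0.854), Siah3 (0.842), Gm45552 (0.811), Abat (0.809) and Ntsr2 (0.793), out of 14970 genes with a mean log2 CPM over 1. These points share the low group of EZ kainate day 3 libraries. With each group's mean removed, the closest were Ndnf (0.783), Siah3 (0.717), Whrn (0.689), Mfap2 (0.655) and Wnt5a (0.652), so that 2 of 5 genes were on both lists. Ndnf went from 30.3 ± 3.7 to 17.9 ± 5.2 CPM at day 3 in the EZ and was at 28.3 ± 7.6 CPM at day 7 after kainate. Abat, which breaks down GABA, went from 199.6 to 92.1 CPM and back to 186.9 CPM, and Ntsr2, a neurotensin receptor of astrocytes, from 109.5 to 39.96 and 92.5 CPM. The correlations are a description over libraries and carry no test.

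The other members were not close to Reln by this measure. The correlations of levels were 0.553 for Vldlr, 0.140 for Dab1, -0.546 for Lrp8 and -0.643 for Lrpap1. After removal of the group means they were -0.138, -0.499, -0.340 and 0.045. Among the interneuron markers Pvalb ranked 21st for its levels (r = 0.721) and Sst had r = 0.559, but with the group means removed these were 0.325 and 0.027, and Gad1, Gad2 and Lamp5 were at about -0.15. Of the Cajal-Retzius markers, Nhlh2 was at 0.678 and then 0.516, and Trp73 at 0.605 and then 0.455.

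Around the 5 genes, a list of 37 others that act in reelin signalling held more DEG in the EZ than in the PIZ, as did all genes tested. The EZ at day 3 held 5 higher and 2 lower, which is 18.9% of the list beside 24.7% of all genes. At day 7 there were 9 higher and 4 lower, 35.1% beside 32.5%, and at day 14 there was 1 higher, 2.7% beside 2.36%. The PIZ had 1 higher gene at day 3 (2.7%, beside 8.69% of all genes) and 1 at day 7 (2.7%, beside 0.201%). It had none at day 14 (beside 0.014%). At an unadjusted p under 0.05 there was then 1 of 37, beside 1277 of all 21390 genes. The median log2 fold change of the list in the EZ was -0.06 at day 3 and 0.18 at day 7. Over all genes these were 0.0323 and 0.0109. The list median was between -0.02 and 0.05 elsewhere. All 37 genes passed the filter.

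Outside the cell, 2 of 5 proteases that cut reelin rose in the EZ at day 3, and 3 rose and 1 fell at day 7. Of all genes 16.1% were called higher at day 3, and 20.6% higher and 11.9% lower at day 7. Plat, which encodes tissue plasminogen activator, rose from 34.6 ± 3.7 to 69.0 ± 10.7 CPM in the EZ at day 3 (1.996-fold, adjusted p = 5.09e-05) and 2.19-fold at day 7 (adjusted p = 4.78e-06). It also rose 1.63-fold in the PIZ at day 3 (adjusted p = 0.00614), the only gene of the list called there. Adamts5, a secreted metalloprotease, rose 4.99-fold at day 3 and 5.19-fold at day 7 in the EZ, from under 1 CPM in saline to 4.79 ± 1.8 and 4.17 ± 1.9 CPM. Adamts3, another metalloprotease that cuts reelin, fell at day 7 from 19.1 ± 2.0 to 6.98 ± 3.9 CPM (log2 fold change -1.45, SE 0.37, adjusted p = 0.000975), and is named here after its values were seen.

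Of 4 other ligands of the reelin receptors 1 was called in the EZ at day 3, 3 at day 7 and 1 at day 14, all higher, beside 16.1%, 20.6% and 2.32% of all genes called higher. The PIZ had 1 call, at day 7. Apoe, the apolipoprotein that Lrp8 and Vldlr bind, rose 6.68-fold in the EZ at day 7 (adjusted p = 7.94e-08), with kainate libraries from 2146 to 10359.8 CPM against 781 to 941 CPM in saline. Thbs1, thrombospondin 1 of the extracellular matrix, rose from 2.36 ± 0.39 to 85.6 ± 53.2 CPM at day 3 in the EZ. It was the one gene of the list called there at day 14 (log2 fold change 3.89, adjusted p = 0.00389), a call that rested on mouse 27. That library was at 82.5 CPM, while the others were at 0.756, 1.69 and 2.67 CPM against 1.08 to 1.81 CPM in saline, and without mouse 27, a fit added after the values were seen, the change was 0.24 (adjusted p = 1). Clu, the apolipoprotein clusterin, rose 1.56-fold in the PIZ at day 7 (log2 fold change 0.65, SE 0.13, adjusted p = 0.00585). In the EZ it went both ways by less than 1.5-fold: it fell by 0.46 at day 3 (adjusted p = 0.00249), from 969 to 704 CPM, and rose by 0.56 at day 7 (adjusted p = 0.000232).

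At the membrane, Itgb1, the integrin beta 1 subunit, rose 2.82-fold at day 3 and 3.43-fold at day 7 in the EZ, from 61.2 and 50.1 CPM. Mylip, a ubiquitin ligase that marks Vldlr and Lrp8 for breakdown, rose 3.04-fold at day 7 (adjusted p = 1.39e-05), from 21.3 ± 3.5 to 64.6 ± 38.7 CPM. Markers of other cells rose in the same libraries. All 5 meninges and fibroblast markers rose in the EZ at both days, with sums of 92.6 to 342.3 CPM against 51.2 to 64.7 CPM in saline at day 3 and of 68.99 to 308.7 CPM against 37.5 to 50.8 CPM at day 7. Of 5 endothelial markers 4 rose at each of these days, when 16.1% and 20.6% of all genes were called higher. The part of these cells in the changes of Plat, Adamts5, Thbs1 and Itgb1 was not tested.

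Of the 24 genes that act downstream of the receptors, 1 rose and 2 fell in the EZ at day 3 (12.5% called, beside 24.7% of all genes), and 1 rose and 3 fell at day 7 (16.7%, beside 32.5%). The Src family kinases Fyn, Src and Yes1 gave no call with edgeR in any of the 6 comparisons. At an unadjusted p under 0.05 there were 2 of 3 in the EZ at day 3 and 3 of 3 at day 7. In the PIZ at day 3 there was 1 of 3. Of all 21390 genes, 11537, 13128 and 7641 were under that cut in these 3 comparisons. Rap1b rose 1.75-fold at day 3 and 2.17-fold at day 7. Mapt, the tau gene, fell to 0.656 of saline at day 3 (adjusted p = 2.07e-06), and Gsk3b, which encodes a tau kinase, to 0.657 at day 7 (adjusted p = 9.64e-06). Pafah1b1, the LIS1 gene, fell to 0.653 and Cdk5r1, an activator of the kinase CDK5, to 0.618 at day 7. Socs7, part of the complex that removes DAB1, fell to 0.639 at day 3 (adjusted p = 3.33e-05).

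**Figure D4:**
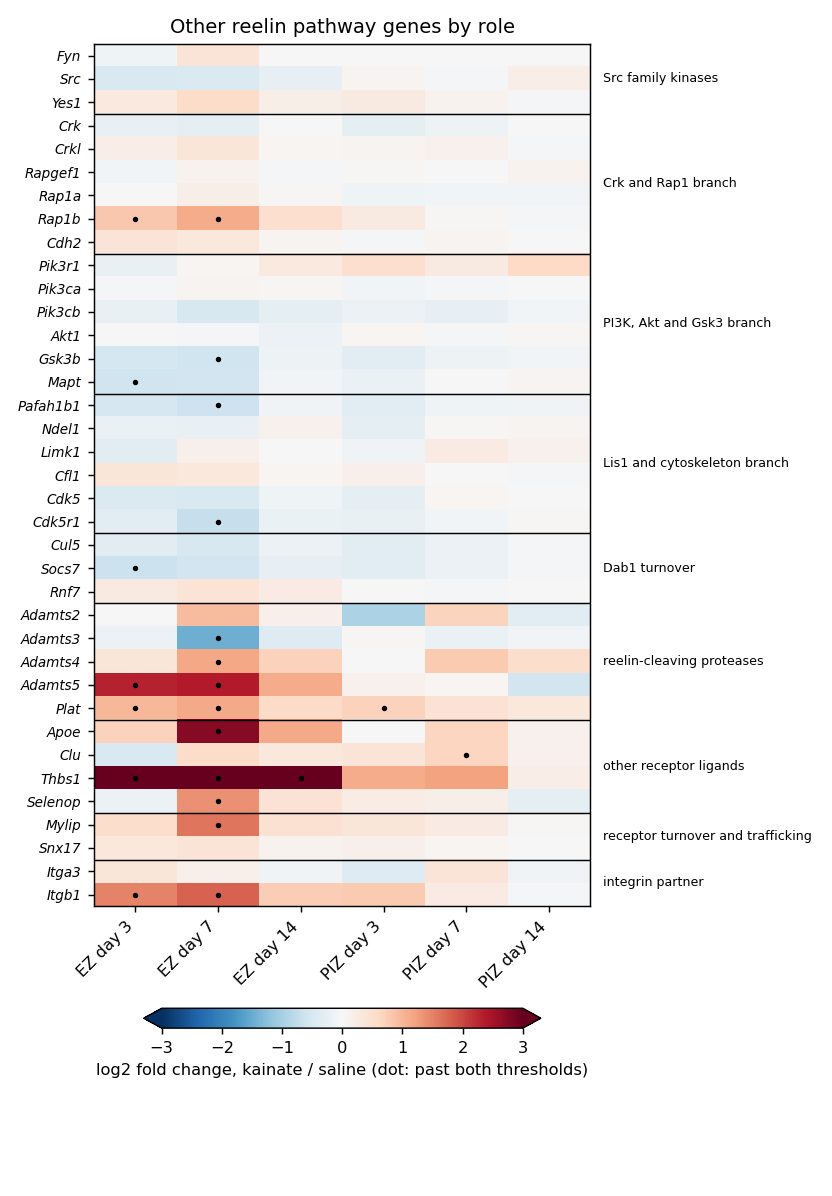
Log2 fold change of kainate over saline for the other 37 genes of the reelin list, by role and by region and day, with a dot where a gene passed both thresholds. Dots fall mainly in the EZ columns, 7 at day 3 and 13 at day 7, and in the PIZ only at Plat (day 3) and Clu (day 7). Of all genes 5280 and 6960 were called in the EZ at these days and 1858 and 43 in the PIZ.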

How the data were processed

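The authors trimmed reads with fastp 0.20.1, aligned them with HISAT2 2.2.1 to GRCm39 and counted them per gene with featureCounts of Subread 1.6.4, using strand and the primary alignment of reads that map to several places. They deposited raw counts per gene and library, without normalization. The 12 groups came from the sample labels, and mouse numbers from the sample titles.

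All tests used edgeR 4.0.16 (R 4.3.3). Low counts were removed by filterByExpr, TMM gave the library scaling, and the quasi-likelihood fit covered all 48 libraries, with a mean for each of the 12 groups. The procedure was tested on simulated data. Adjustment (Benjamini-Hochberg) was over the 21390 genes of 1 comparison. The SE is the absolute log2 fold change divided by the square root of F. Log2 CPM used a prior count of 2. The exact permutation test covered all splits of 4 mice against 4. Positions and lengths came from Gencode annotation, which matched 98.9% of gene identifiers. The 2 libraries of a mouse came from the same animal, and their residuals correlated between -0.0536 and 0.376. No replicate pair agreed within sampling noise. A member of the set counts as called if its adjusted p is below 0.01 and it changed by more than 1.5-fold.

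The members and gene lists were chosen with earlier results of these data known. Named list genes were, in each role, the 2 DEG of lowest p in either early EZ comparison (day 3 or 7) and any DEG in the PIZ, the 5 genes most like Reln by each measure, and the 2 most abundant genes of a marker list with Trp73, Lhx5, Gad1 and Gad2. Alternatives were DESeq2 1.42.0, DESeq2-type (RLE) size factors, no filter, only the groups compared, each mouse left out, and mouse as a block. One gene of the reelin list is not reported here and is left out of its counts.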

Additional observations from a re-analysis of the deposited data

Results flagged for a closer look

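In the EZ at day 3 after kainate, Reln in mouse 30 was at 9.76 CPM, far below the other mice of its group at 23.2 to 26.6 CPM. The gap to the nearest of the others took up 0.865 of the group's whole range on the log2 scale, past the critical value for 4 samples. Of 60 groups of member values examined this was the 1 that stood out, a lower rate than the about 1 in 20 that chance picks out. These Reln values entered the choice of the set, so the flag describes their spread and is no test. Without mouse 30 the log2 fold change of Reln was -1.42, given without a test.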

How the results depend on the processing

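DESeq2 and RLE size factors left all 70 member effects with the same direction, and mouse as a replicate block did so for all 20 differences between sides. Every effect that was tested also stayed on the same side of the threshold. The Reln effects given without a test have no side, and for them the shift stayed under the spread within groups. Fitting only the groups compared took 2 calls under the threshold, Lrp8 and Vldlr in the EZ at day 3 (0.57, adjusted p = 0.012, and -0.77, adjusted p = 0.012). Without the filter on low counts 3 values near 0 in the PIZ turned sign: Vldlr from day 3 to day 7 (0.0089), and Lrp8 (-0.0171) and Lrpap1 (-0.0165) from day 7 to day 14. The cause was not tested. Removing group means left 2 of the 5 genes most like Reln.

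Each mouse was left out in turn, with both its libraries, and 696 of 740 values kept direction and, where tested, side of the threshold. The ranges of the log2 values where one changed were as follows. In the EZ at day 3 Lrp8 ran from 0.43 to 0.69. In the EZ at day 7 Reln ran from -0.0783 to 0.22, Vldlr from -0.73 to -0.58, Dab1 from -0.61 to -0.39 and Lrpap1 from 0.52 to 0.61. In the PIZ Vldlr ran from -0.13 to 0.026 and Lrpap1 from 0.52 to 0.61 at day 3, and Reln from -0.22 to 0.0341 at day 14. For the EZ effect minus the PIZ effect, Vldlr ran from -0.85 to -0.62 at day 3, Lrp8 from -0.17 to 0.0333 at day 7, and Vldlr from -0.16 to 0.0078, Dab1 from -0.13 to 0.0453 and Lrpap1 from -0.0108 to 0.22 at day 14. Between days, Vldlr ran from -0.0383 to 0.34 (EZ, day 3 to 7) and from 0.38 to 0.64 (EZ, day 7 to 14). In the PIZ Lrp8 ran from -0.13 to 0.0131 and Vldlr from -0.11 to 0.0493 from day 3 to day 7, and Lrp8 from -0.12 to 0.0872, Vldlr from -0.0947 to 0.0784 and Lrpap1 from -0.0343 to 0.056 from day 7 to day 14. For saline EZ against saline PIZ, Lrp8 ran from -0.0397 to 0.0054 and Dab1 from -0.0091 to 0.0523.

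With 4 mice a group, even 1.5-fold changes in Reln, whose log2 fold changes have an SE of about 0.19, could be missed after adjustment over all genes. Lrpap1 in the PIZ at day 14, at an unadjusted p of 0.00406, had an adjusted p of 0.404.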
